A study of Mus musculus with 8 samples.

Results

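The transcripts described here are those of 8 members of the S100 family, S100a8, S100a9, S100a11, S100a6, S100a10, S100a4, S100a13 and S100a1. They were taken by gene identifier from the 49315 genes counted by RNA sequencing in neutrophils of 2-month-old C57BL/6 mice, an inbred laboratory strain. The neutrophils had been drawn into the peritoneal cavity with casein, a milk protein, and then sorted by density. The 8 libraries formed 4 groups of 2, namely H2R-deficient low-density, H2R-deficient high-density, wild-type low-density and wild-type high-density neutrophils. All 4 groups share strain, age and casein treatment, and differ in density and in whether the mice lacked H2R, the histamine H2 receptor. The labels give neither the deleted part of the receptor gene nor whether animals were pooled or separate, and p-values here cover the variation among these libraries alone, part or all of which could be technical.

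S100 proteins are small calcium-binding proteins built around EF hands that mostly act as dimers: on binding calcium they open a surface that holds a partner protein. S100A8 and S100A9 pair into calprotectin, which makes up much of the neutrophil cytosol, binds zinc and manganese, and acts outside the cell on TLR4 and RAGE. The others work mainly inside cells, on annexins at membranes (S100A10, S100A11, S100A6), on nonmuscle myosin (S100A4), or on the release of FGF1 and interleukin 1 alpha (S100A13), while S100A1 is best known from heart and skeletal muscle.

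All 8 genes lie on mouse chromosome 3 of GRCm38, in 2 stretches that the gap between S100a9 and S100a11 separates by 2824.767 kb. In the first stretch, 181.598 kb from its first to its last gene start, S100a1 (ENSMUSG00000044080, 90511034 to 90514392, minus strand) ends 0.043 kb before S100a13 (ENSMUSG00000042312, 90514435 to 90524581, plus strand) begins. S100a4 (ENSMUSG00000001020, 90603771 to 90606045), S100a6 (ENSMUSG00000001025, 90612882 to 90624181) and S100a8 (ENSMUSG00000056054, 90668978 to 90670035) follow on the plus strand, and S100a9 (ENSMUSG00000056071, 90692632 to 90695721) closes the stretch on the minus strand. The second stretch holds S100a11 (ENSMUSG00000027907, 93520488 to 93526287) and, 34.592 kb further from start to start, S100a10 (ENSMUSG00000041959, 93555080 to 93564643), both on the plus strand. Of the 8, only S100a4 shares annotated exon sequence with another gene, 156 bases with Gm42674 on the same strand, which held 0 or 1 counts. The pseudogene S100a11-ps held 0 to 2 counts.

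The RefSeq promoter windows of GRCm38.p6, from 250 bases before to 50 bases after the RefSeq gene start, are shown for S100a8 and S100a9, the most abundant members, for S100a4, whose level varied most between groups, and for S100a11, which shared the direction of S100a8 and S100a9 but not their promoter motifs. Capitals mark matches to 4 motifs, searched on both strands, with no overlap between matches. The TATA box was searched as TATAAA. The motif used for PU.1, a transcription factor of myeloid cells, was GAGGAAG. Where that motif lies on the other strand, it reads CTTCCTC in the printed strand. For the C/EBP factors of granulocytes the letters were TTGCNNAA. For the AP-1 factors they were TGANTCA.
S100a8, chr3:90668821-90669120, plus strand: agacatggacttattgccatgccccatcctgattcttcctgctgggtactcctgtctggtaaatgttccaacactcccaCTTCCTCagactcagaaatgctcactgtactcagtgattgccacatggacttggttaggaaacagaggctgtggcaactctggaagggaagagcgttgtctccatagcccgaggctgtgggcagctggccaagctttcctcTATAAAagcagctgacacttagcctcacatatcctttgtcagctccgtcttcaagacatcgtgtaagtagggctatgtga
S100a9, chr3:90695672-90695971, minus strand: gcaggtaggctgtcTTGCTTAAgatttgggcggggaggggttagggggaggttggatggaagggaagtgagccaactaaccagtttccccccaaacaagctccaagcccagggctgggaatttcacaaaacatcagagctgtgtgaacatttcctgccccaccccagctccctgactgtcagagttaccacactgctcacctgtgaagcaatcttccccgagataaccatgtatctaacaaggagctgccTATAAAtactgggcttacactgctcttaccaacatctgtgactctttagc
S100a4, chr3:90603520-90603819, plus strand: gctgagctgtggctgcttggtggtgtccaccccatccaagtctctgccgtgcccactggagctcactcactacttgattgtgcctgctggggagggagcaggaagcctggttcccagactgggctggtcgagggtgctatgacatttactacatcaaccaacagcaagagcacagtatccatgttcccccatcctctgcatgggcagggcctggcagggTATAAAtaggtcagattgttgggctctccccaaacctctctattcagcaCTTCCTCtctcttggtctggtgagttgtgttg
S100a11, chr3:93520246-93520545, plus strand: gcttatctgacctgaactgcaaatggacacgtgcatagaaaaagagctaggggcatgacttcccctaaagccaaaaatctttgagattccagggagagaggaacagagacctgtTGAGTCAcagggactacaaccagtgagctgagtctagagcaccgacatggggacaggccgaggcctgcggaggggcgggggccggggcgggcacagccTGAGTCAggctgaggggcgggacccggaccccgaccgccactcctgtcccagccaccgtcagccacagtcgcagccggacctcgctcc

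Of the 8 members, 7 had a window, and none is printed for S100a10. TATAAA was found at -30 in S100a8, at -31 in S100a4 and at the annotated start itself in S100a9, and 13.6% of all 32851 windows hold it. The PU.1 motif was found at -171 in S100a8 and at 19 in S100a4, against 13.6% of all windows. The C/EBP motif was found once, in S100a9 at -236 (10.8% of all windows), and the AP-1 motif only in S100a11, at -136 and -38 (7.81% of all windows). None of the 4 motifs was found in the windows of S100a6, S100a1 and S100a13. The windows of S100a1 and S100a13 share 204 bases. S100a8, which fell in H2R-deficient low-density cells, and S100a4, which rose there, both held TATAAA and the PU.1 motif. The PU.1 match lies before the start in S100a8 and after it in S100a4. Whether these motifs bear on the direction was not tested.

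Libraries held 19862716 to 24199215 counts assigned to genes, and 14909 genes were tested, among them all 8 members. Levels of different genes are compared below in TPM, a count scaled by length and depth, computed from the counts and the deposited exonic lengths. Fold changes come from edgeR's quasi-likelihood model after TMM scaling, which sets the libraries so that most genes do not change. TMM multiplied library sizes by 1.11 to 1.49 at low density and by 0.742 to 0.808 at high density, so a gene with equal TPM in both populations counts as lower at low density after TMM. Without TMM, on total counts only, the median gene changed by 0.9998 (log2) between low and high density in H2R-deficient and by 0.67 in wild-type cells, against 0.10 in both with TMM. With total counts only, 7690 genes were called higher and 387 lower in the H2R-deficient density comparison, against 4478 higher and 3566 lower with TMM. The targeted gene, Hrh2, was present in every library, at 435 and 215 counts in H2R-deficient low-density and 556 and 830 in wild-type low-density cells, and at 599 and 275 in H2R-deficient high-density and 2003 and 700 in wild-type high-density cells, and its genotype differences were not called (edgeR adjusted p = 0.196 at low and 0.192 at high density). The counts cover the whole gene, so this level checks the genotype only in part.

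The libraries held the defining transcripts of neutrophils, with none of 11 markers at 0 counts and a summed level of 11791 and 13979 CPM (a count scaled by the library's total of all genes) in H2R-deficient low-density, 21220 and 20109 in H2R-deficient high-density, 16492 and 20528 in wild-type low-density and 22146 and 19044 in wild-type high-density cells. After TMM scaling 8 of the 11 were called lower at low density in H2R-deficient cells, with a median log2 fold change of -1.64. In wild-type cells 3 were called lower (median -0.58), and none was called higher in either genotype. Of all genes tested, 23.9% and 4.15% were called lower. On total counts only, 8 were again lower in H2R-deficient cells (median -0.74), and in wild-type cells 2 were higher and 1 lower (median -0.02). Markers of several other cell types moved with density. The 7 B cell markers summed to 1074 and 1236 CPM in H2R-deficient low-density and 33.0 and 47.6 in H2R-deficient high-density cells, and to 498 and 203 in wild-type low-density and 38.7 and 45.9 in wild-type high-density cells. The 8 dendritic cell markers summed to 713 and 947 CPM in H2R-deficient low-density and 7.80 and 11.5 in H2R-deficient high-density cells, and to 567 and 236 in wild-type low-density and 6.73 and 25.7 in wild-type high-density cells. No B cell or dendritic cell marker was at 0 in any library. Of 9 macrophage markers, 5 were called higher and 2 lower at low density in H2R-deficient cells (median log2 fold change 1.30). Of all genes, 30% were called higher and 23.9% lower there. In wild-type cells none of the 9 was called (median 0.22), against 12.7% of all genes. On total counts only, 6 were higher in H2R-deficient and 1 in wild-type cells, and none was lower. The 6 markers of dividing cells summed to 196 to 489 CPM at low and 80.1 to 121 CPM at high density, with none at 0, and the 6 NK cell markers to 9.10 to 16.7 and 0.641 to 1.35 CPM, with Ncr1, Klrb1c or Prf1 at 0 in some high-density libraries. Erythroid markers moved the other way and furthest, with all 5 tested called lower at low density in both genotypes (median log2 fold change -6.40 in H2R-deficient and -7.16 in wild-type cells). The 6 erythroid markers summed to 0.165 to 1.66 CPM at low density, with 1 to 3 of them at 0, and to 21.6 to 183 CPM at high density. The part of these cell types in the S100 results was not tested, and in bulk RNA fewer cells of a type and less RNA per cell cannot be told apart.

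S100 transcripts took 1.91% to 3.93% of all counts, and S100a8 and S100a9 together made up 93.0% to 94.8% of the TPM of the 8 members. S100a9 was the most abundant of all transcripts by TPM in 7 of 8 libraries, and S100a8 stood at rank 2 or 3 in every library. S100a11 stood between rank 14 and rank 25 and S100a6 between rank 53 and rank 76. S100a4 and S100a10 ranged more widely, S100a4 from rank 435 to rank 2471 and S100a10 from rank 650 to rank 3111. S100a13 stood between rank 1533 and rank 2221, above S100a4 and S100a10 in the H2R-deficient high-density libraries, and S100a1 was the lowest member in every library (rank 4713 to 7314).

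**Figure D1:**
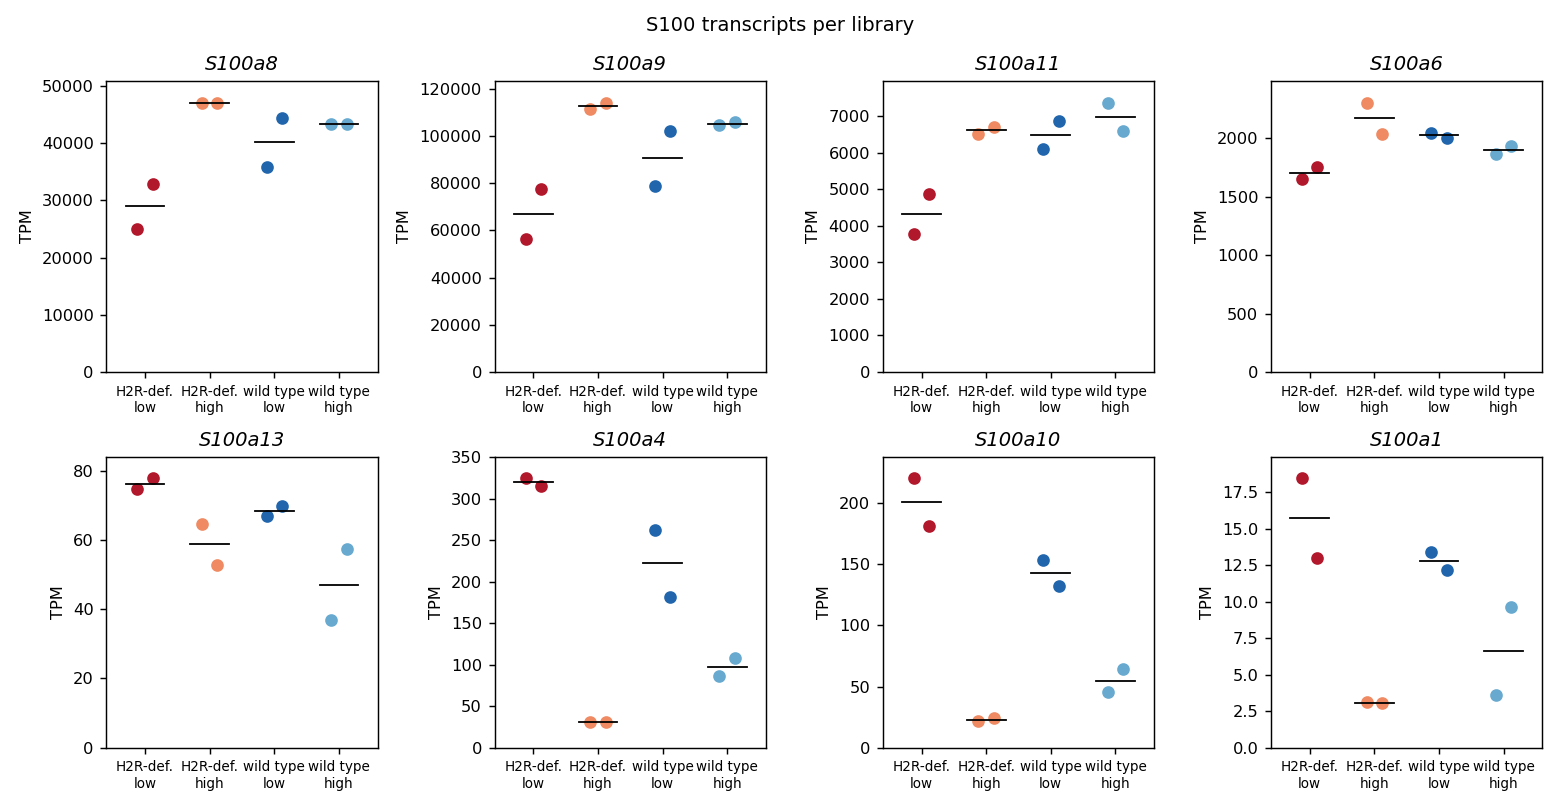
TPM of each S100 member (vertical axis, linear from 0, a scale of its own per panel) in the 8 libraries, grouped by genotype and density; points are libraries and bars the mean of 2. S100a4 and S100a10 are highest in H2R-deficient low-density and lowest in H2R-deficient high-density cells, and S100a8, S100a9 and S100a11 are lowest in H2R-deficient low-density cells.

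Low-density cells of H2R-deficient mice differed from their high-density cells in 7 of 8 S100 members, against 54% of all genes tested. S100a8, S100a9, S100a11 and S100a6 fell, S100a9 most (3.28-fold), while S100a4 (5.20-fold), S100a10 (4.42-fold) and S100a1 (2.55-fold) rose. The share of genes called lower was 23.9% and of genes called higher 30%. The median log2 fold change of the members was -0.96, against 0.10 for all genes. After TMM scaling the 2 populations lay apart, with no overlap of libraries, for all 8 members in H2R-deficient cells, where 81.1% of all genes lay apart, and for 6 in wild-type cells (not S100a1 and S100a13), where 62.1% did. In wild-type cells only S100a10 passed the test, 1 of 8 members against 12.7% of all genes, with 8.51% called higher and 4.15% lower. The members' median was -0.33, against 0.10 for all genes.

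S100a9, the larger subunit of calprotectin, held 56191 and 77716 TPM in H2R-deficient low-density libraries, against 111570 and 114121 TPM in H2R-deficient high-density libraries. In wild-type cells it held 78899 and 102104 TPM at low density, against 104498 and 105855 TPM at high density. Low-density libraries lay below high-density ones in both genotypes, and the 2 low-density libraries of a group differed more from each other than the high-density ones. After TMM scaling S100a9 averaged 9446 ± 3040 CPM in H2R-deficient low-density and 30974 ± 1517 CPM in H2R-deficient high-density cells (SD, n = 2), a log2 fold change of -1.71 ± 0.28 (SE; edgeR adjusted p = 0.00122). The wild-type difference of -0.85 ± 0.28 missed the threshold (edgeR adjusted p = 0.0696).

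S100a8, its partner subunit, held 25077 and 32943 TPM in H2R-deficient low-density libraries, against 46970 and 47086 TPM in H2R-deficient high-density libraries. In wild-type cells S100a8 held 35904 and 44346 TPM at low density, against 43424 and 43390 TPM at high density. The H2R-deficient populations lay apart, whereas in wild-type cells the 2 populations overlapped in TPM. Its log2 fold change after TMM scaling was -1.66 ± 0.26 in H2R-deficient cells (edgeR adjusted p = 0.000997) and -0.75 ± 0.26 in wild-type cells, where it did not pass (edgeR adjusted p = 0.0787).

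Both subunits kept nearly the same ratio in every library. S100a8 stood at 44.6% and 42.4% of the TPM of S100a9 in H2R-deficient low-density and 42.1% and 41.3% in H2R-deficient high-density cells. In wild-type cells the share was 45.5% and 43.4% at low density, against 41.6% and 41.0% at high density. The low-density libraries lay slightly above the high-density ones in both genotypes, by 0.06 and 0.11 on the log2 scale.

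S100a11, which binds annexin A1 at membranes, held 3762 and 4872 TPM in H2R-deficient low-density libraries, against 6518 and 6712 TPM in H2R-deficient high-density libraries. In wild-type cells S100a11 held 6099 and 6860 TPM at low density, against 7369 and 6604 TPM at high density, and these overlapped. The H2R-deficient low-density libraries were the lowest of the 4 groups and lay below all others. S100a11 fell by 1.58 ± 0.24 on the log2 scale in H2R-deficient low-density cells (edgeR adjusted p = 0.000809), and the wild-type difference of -0.75 ± 0.23 did not pass (edgeR adjusted p = 0.0621).

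S100a6, or calcyclin, which binds annexin A11 and the calcyclin-binding protein, held 1652 and 1753 TPM in H2R-deficient low-density libraries, against 2304 and 2038 TPM in H2R-deficient high-density libraries. In wild-type cells S100a6 held 2047 and 1998 TPM at low density, against 1862 and 1933 TPM at high density. Low density was thus the lower population in H2R-deficient and the higher one in wild-type cells in TPM. After TMM scaling the log2 fold change was -1.32 ± 0.18 in H2R-deficient cells (edgeR adjusted p = 0.000610) and -0.55 ± 0.18 in wild-type cells (edgeR adjusted p = 0.0715). On total counts only it was -0.42 in H2R-deficient cells (edgeR adjusted p = 0.0487) and 0.02 in wild-type cells.

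S100a10, which does not bind calcium and forms a complex with annexin A2 that holds plasminogen and ion channels at the cell surface, held 220 and 181 TPM in H2R-deficient low-density libraries, against 21.5 and 24.4 TPM in H2R-deficient high-density libraries. In wild-type cells S100a10 held 153 and 132 TPM at low density, against 45.7 and 64.1 TPM at high density. The 4 groups did not overlap, in the order H2R-deficient low-density, wild-type low-density, wild-type high-density and H2R-deficient high-density. S100a10 rose with a log2 fold change of 2.14 ± 0.21 in H2R-deficient low-density cells (edgeR adjusted p = 0.000206) and of 0.73 ± 0.20 in wild-type low-density cells (edgeR adjusted p = 0.0432). The wild-type call was lost on leaving out any one library except wild-type high-density 4, with a lowest log2 fold change of 0.51 (edgeR adjusted p = 0.196) without wild-type high-density 2.

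S100a4, which binds nonmuscle myosin heavy chain and is known from migrating cells, held 324 and 316 TPM in H2R-deficient low-density libraries, against 31.4 and 31.1 TPM in H2R-deficient high-density libraries. In wild-type cells S100a4 held 263 and 181 TPM at low density, against 86.8 and 108 TPM at high density. Its 4 groups did not overlap and stood in the same order as those of S100a10. The log2 fold change was 2.38 ± 0.21 in H2R-deficient cells (edgeR adjusted p = 0.000193), the 56th lowest p of all genes tested, and 0.53 ± 0.19 in wild-type cells, where it did not pass (edgeR adjusted p = 0.0923). On total counts only the wild-type difference of S100a4 was 1.11 and passed (edgeR adjusted p = 0.00627).

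S100a1 was the lowest of the members, with only 18 to 115 counts per library. It held 18.5 and 13.01 TPM in H2R-deficient low-density libraries, against 3.11 and 3.08 TPM in H2R-deficient high-density libraries, and 13.4 and 12.2 TPM in wild-type low-density libraries, against 3.59 and 9.66 TPM in wild-type high-density libraries. Low density was the higher population in both genotypes in TPM. S100a1 rose with a log2 fold change of 1.35 ± 0.45 in H2R-deficient low-density cells (edgeR adjusted p = 0.0310), a call that was lost without any one of the 4 H2R-deficient libraries (edgeR adjusted p = 0.0581 to 0.127 without H2R-deficient low-density 2, H2R-deficient high-density 2, H2R-deficient high-density 1 or H2R-deficient low-density 1). The wild-type difference was 0.30 ± 0.43 (edgeR adjusted p = 0.644).

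S100a13, its neighbour on the opposite strand, held 74.6 and 77.8 TPM in H2R-deficient low-density libraries, against 64.6 and 52.9 TPM in H2R-deficient high-density libraries. In wild-type cells S100a13 held 67.1 and 69.8 TPM at low density, against 36.9 and 57.4 TPM at high density. The low-density libraries were the higher ones in TPM in both genotypes, but after TMM scaling the log2 fold change was -0.60 ± 0.24 in H2R-deficient and -0.10 ± 0.24 in wild-type cells, and neither passed (edgeR adjusted p = 0.0580 and 0.789). With RLE size factors the H2R-deficient difference was -0.64 and passed (edgeR adjusted p = 0.0363). On total counts only the differences of S100a13 were 0.30 and 0.46, so its direction depended on the scaling.

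**Figure D2:**
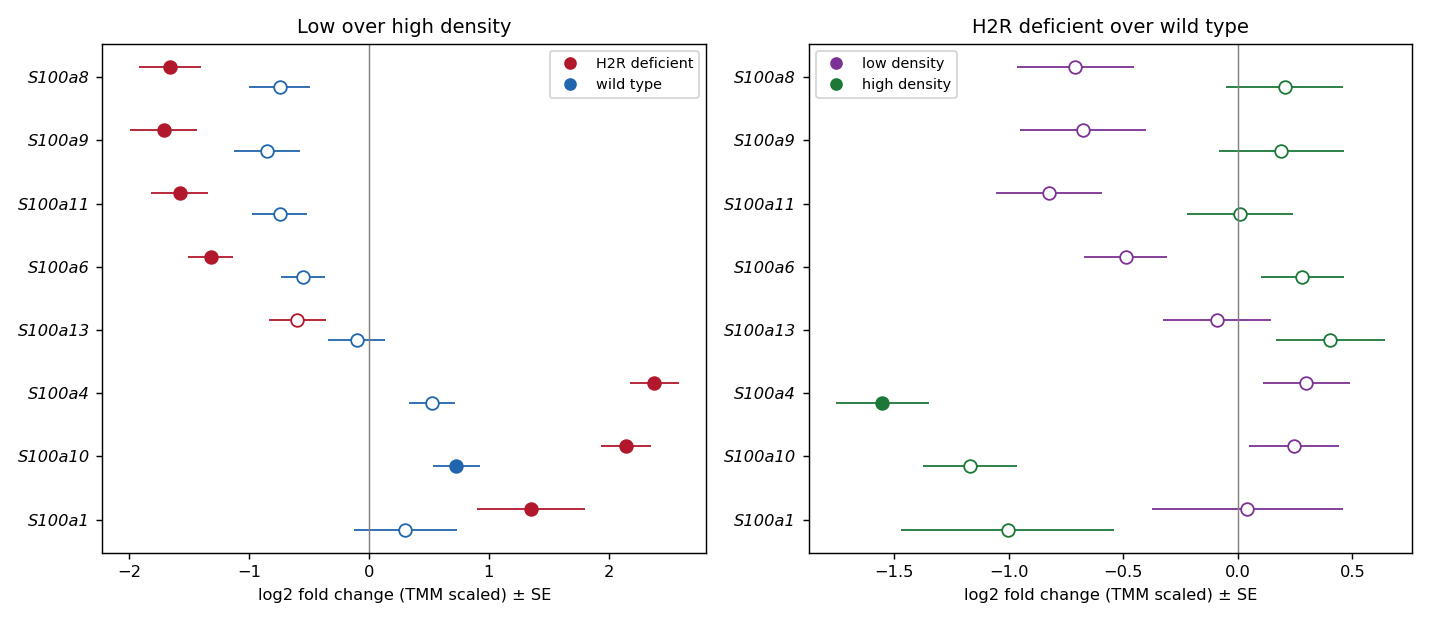
Log2 fold changes (horizontal axis, TMM scaled) of the 8 members with their SE as bars, for low over high density (left) and H2R deficient over wild type (right); filled points passed the edgeR test and open ones did not. At the density comparison of H2R-deficient cells 4 members are filled on the left of 0 and 3 on the right; the filled point of the right panel is S100a4 at high density, at -1.55.

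**Figure D3:**
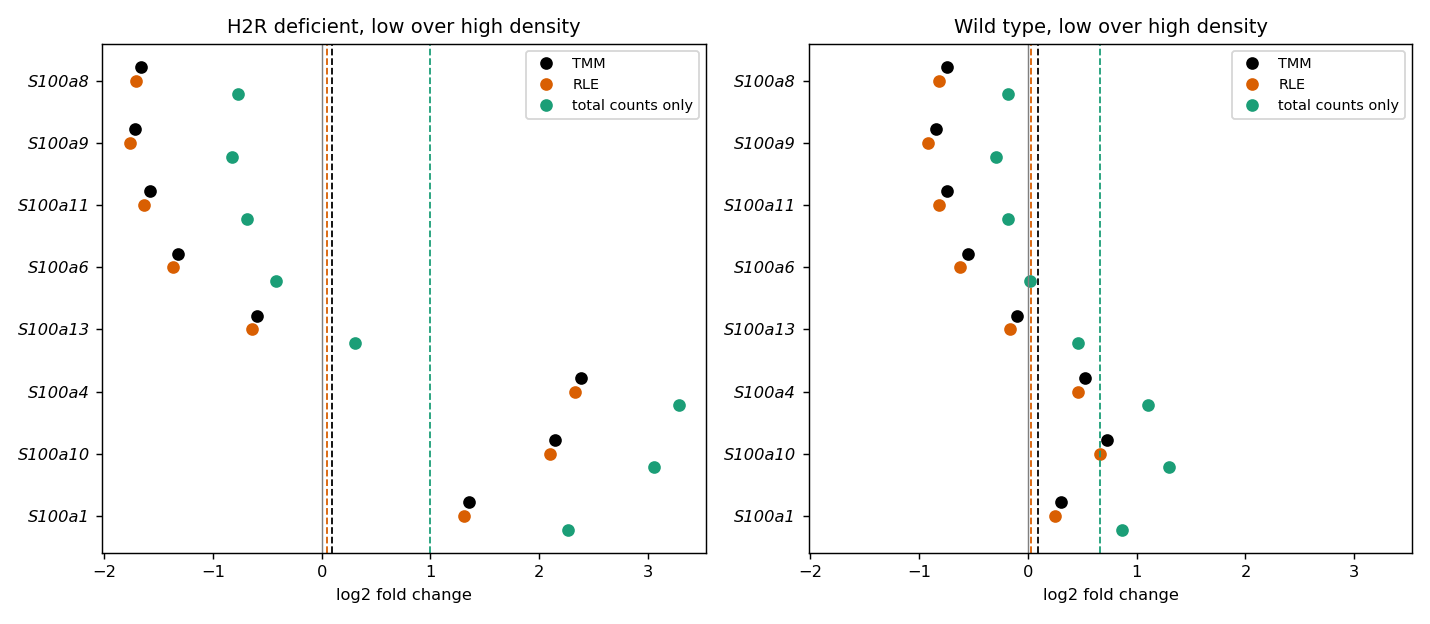
Log2 fold change of each member between low and high density (horizontal axis) in H2R-deficient (left) and wild-type cells (right) with TMM, RLE or total counts only; dashed lines are the median of all genes with the same scaling. Total counts only moves all members and the median of all genes to the right together, to a median of 0.9998 and 0.67, and puts S100a13 on the other side of 0 in both genotypes and S100a6 in wild-type cells.

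Ratios within a library do not depend on that scaling and are given as a description. Relative to S100a9, S100a4 stood 4.13 higher (log2) at low than at high density in H2R-deficient cells and 1.40 higher in wild-type cells. S100a10 stood 3.90 and 1.62 higher, S100a1 3.10 and 1.35 higher, and S100a13 1.15 and 0.80 higher in H2R-deficient and wild-type cells in turn. For S100a6 the differences were 0.42 and 0.32, and for S100a11 0.14 and 0.12, with overlap in wild-type cells for S100a11. S100a8, S100a11 and S100a6 thus kept close to S100a9, while S100a4, S100a10 and S100a1 departed from it most, and further in H2R-deficient than in wild-type cells. On total counts only, the median of all genes changed by 0.9998 in H2R-deficient and 0.67 in wild-type cells. S100a9 changed by -0.82 and -0.29 there, and S100a13 by 0.30 and 0.46. The median gene thus also stood higher relative to S100a9 at low density, by more than S100a13 did, and further in H2R-deficient cells. In TPM, S100a4 made up 0.577% and 0.406% of S100a9 in H2R-deficient low-density libraries, against 0.0281% and 0.0272% in H2R-deficient high-density libraries. In wild-type cells S100a4 made up 0.333% and 0.177% of S100a9 at low density, against 0.0831% and 0.102% at high density.

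**Figure D4:**
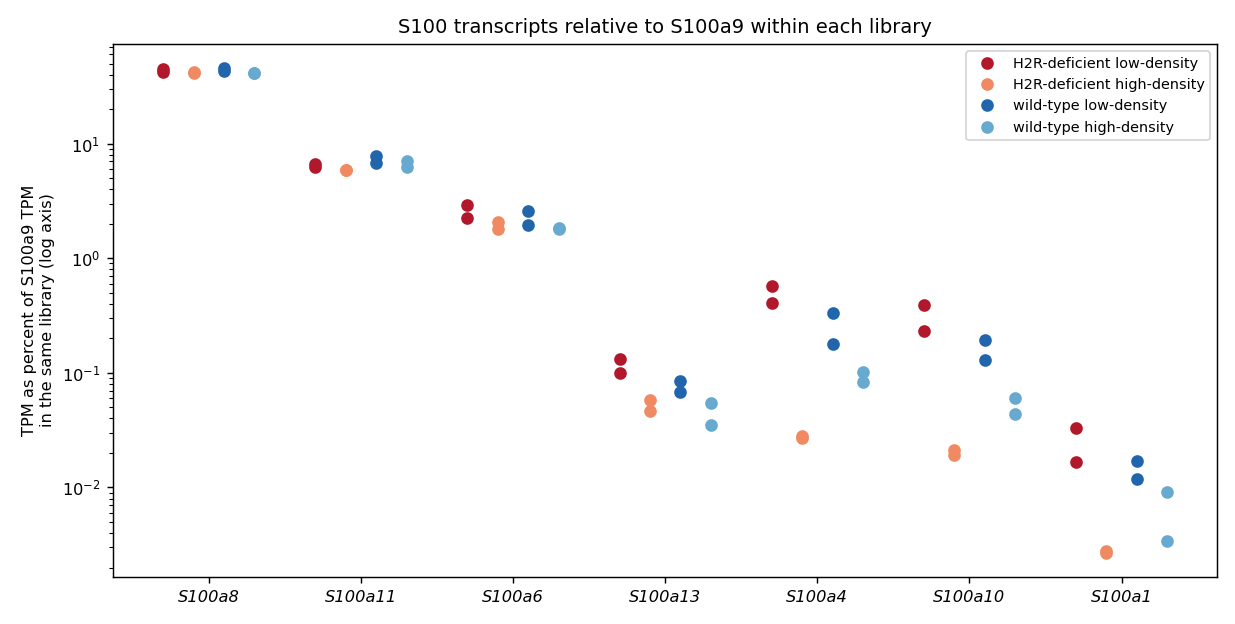
TPM of 7 members as a percentage of the TPM of S100a9 in the same library (vertical axis, logarithmic), with the 4 groups side by side in colour and 1 point per library. S100a8 stays between 41.0% and 45.5% in all libraries, while S100a4 runs from 0.0272% to 0.577%.

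Between the genotypes, no member passed at low density and 1 of 8, S100a4, at high density, against 0% and 0.208% of all genes (0.0201% higher and 0.188% lower at high density). At low density the count of genes at an unadjusted p under 0.05 was 3128, among them 4 members, and DESeq2 called 870 genes, of which S100a11 was the only member (-0.82 in both tools; DESeq2 adjusted p = 0.0180 and edgeR adjusted p = 0.118). S100a8 differed by -0.71 ± 0.25, S100a9 by -0.68 ± 0.28 and S100a6 by -0.49 ± 0.18 between H2R-deficient and wild-type low-density cells, with edgeR adjusted p-values of 0.172, 0.209 and 0.180. After TMM scaling the genotypes lay apart for 6 of 8 members at low density (not S100a1 and S100a13) and for 7 at high density (not S100a11), against 60.1% and 46.9% of all genes. S100a4 (0.30), S100a10 (0.24), S100a1 (0.04) and S100a13 (-0.09) differed less at low density, with edgeR adjusted p-values of 0.391 to 0.967.

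At high density S100a4 was lower in H2R-deficient cells, with 31.4 and 31.1 TPM against 86.8 and 108 TPM in wild-type cells. The log2 fold change was -1.55 ± 0.20 (edgeR adjusted p = 0.0374), the 7th lowest p of all genes. The call did not hold without any one of 6 libraries, H2R-deficient high-density 1 and 2, H2R-deficient low-density 1 and 2, wild-type high-density 4 and wild-type low-density 4, where the edgeR adjusted p ran from 0.0557 to 0.238 and the log2 fold change from -1.60 to -1.40. S100a10 differed by -1.17 ± 0.20 and missed the threshold (edgeR adjusted p = 0.0586), and S100a1 differed by -1.01 ± 0.46 (edgeR adjusted p = 0.286). S100a8, S100a9, S100a6, S100a11 and S100a13 differed by 0.01 to 0.40, with edgeR adjusted p-values of 0.395 to 0.992. Among 9 macrophage markers, whose sum of 613 to 842 CPM over all libraries rests mostly on Cd68, Csf1r and Adgre1, the complement genes C1qa, C1qb and C1qc differed in the same comparison by -1.80, -1.82 and -1.79 without being called (edgeR adjusted p = 0.0765, 0.0550 and 0.0550). Gata6 was at 0 counts in wild-type high-density 2 and the other macrophage markers were at 0 in none. Of 5 eosinophil markers tested, Siglecf was called lower in this comparison (-1.41 ± 0.21, edgeR adjusted p = 0.0458; named after its value was seen), with a median of -1.29 for the 5. With RLE size factors none of the 5 passed, and on total counts only 2 were called lower. The 6 eosinophil markers summed to 20.1 and 21.4 CPM in H2R-deficient high-density and 59.7 and 53.2 CPM in wild-type high-density cells, with Epx at 0 in all of these but wild-type high-density 4. Other lists differed in both directions without a call after TMM scaling. The median was 2.18 for 9 T cell, 1.22 for 5 mast cell, -1.60 for 5 erythroid and -0.92 for 5 monocyte markers. The part of any of these cell types in the difference of S100a4 was not tested.

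The density effect was compared between genotypes by the interaction of the model. No member passed, nor did any other gene, and 3150 genes had an unadjusted p under 0.05, among them 5 members, while DESeq2 called 946 genes and 3 members. S100a4 rose by 1.85 ± 0.28 more (log2) and S100a10 by 1.41 ± 0.28 more in H2R-deficient than in wild-type cells, each with an edgeR adjusted p of 0.0906, the lowest that any gene reached. S100a4 had the 4th and S100a10 the 94th lowest p. Both passed on total counts only, at 2.174 and 1.75 (edgeR adjusted p = 0.0387 each). The density differences of S100a8, S100a9, S100a11 and S100a6 were more negative in H2R-deficient cells by 0.77 to 0.91, with edgeR adjusted p-values of 0.143 to 0.239. For S100a1 the difference between the density effects was 1.05 ± 0.62 and for S100a13 -0.49 ± 0.34 (edgeR adjusted p = 0.364 and 0.423).

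Few other S100 genes were measurable. Of 9 further S100 genes looked for, 2 could be tested, S100a7a with 17 to 45 counts and S100a16 with 1 to 154 counts. S100a7a fell in H2R-deficient low-density cells (-1.65 ± 0.41, edgeR adjusted p = 0.00800; -0.73 with total counts only, where it did not pass), and S100a16 differed by 3.77 ± 1.46 there without passing (edgeR adjusted p = 0.0613). S100a16 passed on total counts only (4.70, edgeR adjusted p = 0.0325). Its H2R-deficient low-density libraries differed widely from each other, with 154 and 22 counts against 5 and 1 at high density. Wild-type high-density 4 held 24 counts. S100a3, S100a5 and S100a14 held 0 to 16 counts. S100a2, which lies within the first stretch beside S100a4, held 6 to 25 counts, and was not called in H2R-deficient (-1.50 ± 0.70) or wild-type cells (-0.70 ± 0.75; edgeR adjusted p = 0.0958 and 0.539). Within 1 stretch of the chromosome, therefore, S100a4 and S100a1 rose in H2R-deficient low-density cells while S100a6, S100a8, S100a9 and S100a7a fell, and in the other S100a10 rose while S100a11 fell.

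Of the receptors for extracellular S100 proteins, 6 were tested, and in H2R-deficient low-density cells 4 fell and 1 rose. Tlr4 (-1.68 ± 0.28), its co-receptor Cd14 (-1.50 ± 0.31), Ager, which encodes RAGE (-1.55 ± 0.33), and Ly96 (-0.68 ± 0.20) fell, and the scavenger receptor Cd36 rose (1.21 ± 0.33; edgeR adjusted p = 0.00132 to 0.0174 for the 5). With total counts only, Tlr4 alone fell (-0.79), Cd36 and Bsg rose, and Ly96 (0.23) and Bsg (0.56) changed direction. Bsg passed there as higher (edgeR adjusted p = 0.0390). In TPM, Cd14 held 9817 and 12476 in H2R-deficient low-density libraries, against 14196 and 17954 in H2R-deficient high-density libraries. None of the 6 passed in wild-type cells.

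Annexins, the membrane partners of S100A10, S100A11 and S100A6, were tested in 10 genes, of which 5 fell and 1 rose in H2R-deficient low-density cells. Anxa11 (-1.36 ± 0.19), Anxa2 (-1.14 ± 0.22), Anxa3 (-1.18 ± 0.23), Anxa1 and Anxa9 fell, and Anxa6 rose (1.40 ± 0.19; edgeR adjusted p = 0.000511 to 0.0153 for the 6). On total counts only 5 annexins rose and 1, Anxa11, fell. Anxa2, which forms the complex with S100a10, held 778 and 698 TPM in H2R-deficient low-density libraries, against 984 and 675 TPM in H2R-deficient high-density libraries. In wild-type cells Anxa2 held 774 and 775 TPM at low density, against 762 and 595 TPM at high density. Anxa2 transcripts thus stayed within 595 to 984 TPM while S100a10 ran from 21.5 to 220 TPM. In wild-type cells no annexin passed, whereas 3 rose on total counts only.

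Other intracellular partners numbered 10, of which 3 rose and 4 fell in H2R-deficient low-density cells. Ppp5c, a phosphatase that S100 proteins bind, rose (2.38 ± 0.24), as did Cacybp, the calcyclin-binding protein (1.19 ± 0.25), and Fgf1. Myh9, the myosin heavy chain that S100A4 binds (-1.31 ± 0.20), fell, as did Sugt1 and Syt1 (edgeR adjusted p = 0.000228 to 0.0488 for the 6 named). In wild-type cells Ppp5c alone passed (0.96 ± 0.24, edgeR adjusted p = 0.0340). On total counts only, 5 partners rose and 1 fell in H2R-deficient low-density cells. Sugt1 (0.08), Il1a (0.46) and Cybb (0.59) changed direction there, and Cybb passed (edgeR adjusted p = 0.0126).

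Of 6 transcription factors of the myeloid lineage, 5 fell in H2R-deficient low-density cells, Cebpb (-1.55 ± 0.20), Spi1, which encodes PU.1 (-1.24 ± 0.27), Stat3 (-0.83 ± 0.25), Cebpd and Cebpe (edgeR adjusted p = 0.000445 to 0.0348), and Cebpa differed by -0.10 (edgeR adjusted p = 0.811). Cebpb also fell in wild-type low-density cells (-0.72 ± 0.20, edgeR adjusted p = 0.0421). On total counts only, Cebpb alone fell in H2R-deficient low-density cells (-0.65, edgeR adjusted p = 0.00689), none passed in wild-type cells, and Stat3 (0.06) and Cebpa (0.81) changed direction in H2R-deficient cells. After TMM scaling no gene of the receptor, annexin, partner and transcription factor lists passed between the genotypes or in the interaction. With total counts only, Cd36 (-1.96) and Anxa6 (-1.12) were lower in H2R-deficient than in wild-type high-density cells (edgeR adjusted p = 0.0468 each). In the interaction on total counts only, Anxa6 (1.43) and Ppp5c (1.75) passed (edgeR adjusted p = 0.0387 and 0.0403).

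Genes whose pattern over the 8 libraries was most like each member's were found by Pearson's r of log2 CPM after TMM scaling among 8295 genes. The libraries fall into 2 density populations, so a high r says mainly that a gene differs between them in the same direction, whatever the size of the difference. S100a8 and S100a9 were most like the actin and myosin genes Arpc5 (r = 0.998 and 0.996) and Myl6 (0.994 and 0.996), with Hcls1 (0.996) for S100a8 and Arpc3 (0.995) for S100a9. S100a6 was most like Tmod3 (0.998), Actr2 (0.997) and Fam13b (0.996), and S100a11 like Fcgr4, Grina and Capzb (0.997 each). S100a4 was most like Ccdc50 (0.995), Dse (0.992) and Sh3pxd2b (0.991), and S100a10 like Fh1 (0.995), Inppl1 (0.995) and Igbp1 (0.991). S100a1 was most like Cyb5r3 (0.977), Mt2 and Mir7678 (0.973 each), and S100a13 like Zcrb1, Nsun3 (0.969 each) and Plrg1 (0.965).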

How the data were processed

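RNA of 8 libraries, 2 per combination of genotype and density, was sequenced. The deposited values are raw counts of reads per gene, with exonic lengths, per the file headers. Tools listed in the submitters' processing notes are STAR 2.5.2b, Trimmomatic 0.36, bcl2fastq 2.17.1.14 and, from Subread 1.5.2, featureCounts, with the build GRCm38. Strand setting and treatment of multiply mapped reads are not stated there, so reads of overlapping antisense genes or near-identical copies may be shared. Symbols were matched for 48970 of 49315 identifiers. TPM was computed from counts and lengths. At this depth a floor of 3 counts equals 0.124 to 0.151 CPM (counting error only).

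Genes kept by filterByExpr (14909) were fitted with edgeR 4.0.16 (R 4.3.3) by quasi-likelihood with TMM scaling, robust dispersion and 1 mean per group over all 8 libraries, with 4 residual degrees of freedom. Benjamini-Hochberg adjustment ran over all genes tested, and an adjusted p under 0.05 was called. Alternatives were RLE size factors, total counts only, no filter on low counts, DESeq2 1.42.0, the library number as a block, and leaving out each library; for levels, CPM. The fit was tested on simulated data. The members, gene lists and tests were chosen with earlier results of these data known. Genes named are all members, up to 4 per list with the lowest adjusted p (further called genes were added after their values were seen), called genes between the members on the chromosome, and the 3 genes most like each member (at least 5 CPM in a group). The marker genes C1qa, C1qb, C1qc and Siglecf and the partners Il1a and Cybb were named after their values were seen. Motif backgrounds are all RefSeq windows. Of the intracellular partners, 1 gene is counted but not reported by name here.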

Additional observations from a re-analysis of the deposited data

Results flagged for a closer look

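For 5 members, H2R-deficient and wild-type libraries lay apart in opposite directions at the 2 densities, after TMM scaling, in all libraries. S100a8, S100a9 and S100a6 were lower in H2R-deficient than in wild-type cells at low density and higher at high density, with a difference of the density effects of -0.91, -0.87 and -0.77 on the log2 scale. S100a4 and S100a10 were higher in H2R-deficient cells at low density and lower at high density, with differences of 1.85 and 1.41. The difference itself was tested by the interaction of the edgeR model and passed for none of the 5 (edgeR adjusted p = 0.192, 0.239, 0.143, 0.0906 and 0.0906). Of the 14909 genes tested, 2586 (17.3%) lay apart in this way, so the pattern is common in these libraries.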

How the results depend on the processing

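In H2R-deficient cells 7 members were called between the densities, against 8 with RLE size factors and 8 with DESeq2, where S100a13 passed as well, 7 with total counts only and 7 with no filter, and 6 to 8 on leaving out each library. In wild-type cells 1 member was called, against 2 with RLE size factors, 2 with total counts only, 4 with no filter on low counts and 5 with DESeq2, and 0 to 1 on leaving out each library. Between genotypes at low density 0 members were called, against 1 with no filter and 1 with DESeq2 (0 to 0 on leaving out each library). At high density 1 was called, against 2 with no filter and 2 with DESeq2 (0 to 2 on leaving out each library). For the interaction 0 were called, against 2 with total counts only, 2 with no filter and 3 with DESeq2 (0 to 0 on leaving out each library). Leaving out a library leaves a group with 1 library, which is assumed to vary like the other groups.

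Library numbers are shared between densities within a genotype, but the labels do not say that they pair libraries. Deviations of same-numbered libraries from their group means correlated at 0.326 in H2R-deficient and 0.155 in wild-type cells. With 2 libraries per group the deviations within a group mirror each other, so both pairs of a genotype give the same value. With the number as a replicate block, 8 members were called in H2R-deficient cells, 4 in wild-type cells and 0 for the interaction. No paired analysis was possible between the genotypes because their libraries come from different mice.

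Directions reversed for some values. The largest with TMM were the density differences of S100a13 in H2R-deficient (-0.60 ± 0.24) and S100a6 in wild-type cells (-0.55 ± 0.18). Total counts only also moved the median gene between densities, from 0.10 with TMM to 0.9998 in H2R-deficient and 0.67 in wild-type cells. With total counts only, S100a13 changed to 0.30 and 0.46 between densities in H2R-deficient and wild-type cells and to 0.18 between genotypes at low density, S100a6 to 0.017 between densities in wild-type cells, and S100a11 to -0.056 between genotypes at high density. S100a11 also changed there to -0.0064 with RLE and with DESeq2, to -0.023 with no filter, and to -0.045, -0.076 and -0.043 without H2R-deficient high-density 2, wild-type high-density 4 and wild-type low-density 4 (-0.076 to 0.094 over all libraries left out). In wild-type cells between densities, S100a1 changed to -0.23 without wild-type high-density 2, and S100a13 to 0.25 and 0.02 without wild-type high-density 4 and wild-type low-density 2 (ranges -0.23 to 1.18 and -0.38 to 0.25). Between genotypes at low density, S100a1 changed to -0.12 and S100a13 to 0.038 without H2R-deficient low-density 1, and S100a13 to 0.018 without wild-type low-density 4 (ranges -0.12 to 0.18 and -0.23 to 0.038). The cause was not tested. The log2 ratio of the mean levels of S100a9 at low over high density was -0.75 in TPM and -1.71 in CPM over TMM-scaled sizes in H2R-deficient cells, and -0.22 and -0.85 in wild-type cells. On that scale S100a6 in wild-type cells (-0.55) and S100a13 in H2R-deficient (-0.59) and wild-type cells (-0.10) changed sign relative to TPM.

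Over all genes, 1888 were called between densities in wild-type cells, against 4946 with total counts only, 3361 with no filter, 123, 223 and 814 without wild-type high-density 2, wild-type low-density 2 and wild-type low-density 4, and 1138 and 1117 without H2R-deficient low-density 1 and 2. Between genotypes at high density 31 were called, against 73 with total counts only, 1095 with no filter and 677 with DESeq2. At low density 0 were called, against 1360 with no filter and 870 with DESeq2, and for the interaction 0, against 635 with total counts only, 1210 with no filter and 946 with DESeq2. The low counts of S100a1 limit what its values can show.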
